A study of Mus musculus with 36 samples.

Results

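The libraries described here are the 7 H2AK119ub1 libraries of the 24 h series prepared from mouse embryonic stem cells that had received no doxycycline, of 36 libraries in all and 24 H2AK119ub1 libraries. They comprised WT replicates 1 to 3, the Spen clones C3 and D4 and the SPOC clones E7 and H1. WT libraries and Spen libraries were chosen by their titles, and the SPOC libraries by the names of their deposited files. The SPOC libraries go against their titles: the pair whose files are named uninduced is titled as induced for 24 h, and the pair titled uninduced has files named as induced. All cells were female ES cells of the iXist-ChrX line, 129S x Cast hybrids in which a TetOn promoter replaces that of Xist on the 129S allele, so the WT cells carry this promoter too. The Spen clones C3 and D4 are labelled as a deletion of the Spen RRM domain that leaves a spurious truncated product. The SPOC clones are labelled as a mutation of the Spen SPOC domain. Each clone is a single line derived from the parental cells. The question read from these libraries is whether the mark already lay differently along chromosome X in the mutants before Xist was switched on.

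H2AK119ub1 is ubiquitin on a lysine near the end of histone H2A, a mark placed by Polycomb repressive complex 1 and found most densely over CpG-rich promoters of silent developmental genes, with a lower level spread over the rest of the genome. Xist RNA coats the X chromosome from which it is made, and Polycomb complexes then deposit the mark along it. Spen is a large protein that binds Xist RNA through its RNA recognition motifs (RRMs), and its SPOC domain, at the other end of the protein, recruits co-repressors that silence genes. In female ES cells that have not been induced both X chromosomes are active.

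In the 24 h series the Spen lines, the SPOC lines and each WT replicate were handled on separate occasions, and WT replicate 3 received no Drosophila spike-in cells, so genotype and occasion cannot be told apart in it. The 3 h series was handled on a single day. Its 5 uninduced libraries are WT replicate 1, Spen clones C3 and C4 (C4 is labelled a full knockout) and SPOC clones C11 and H1, and they serve here as a second comparison without that limit. Signal is the deposited value of a 250 kb window. A level is log2 of the signal after centring on the median window of the library, so that a level of 0 is the median window and a level of 1 lies 1 doubling above it. Of 685 windows, 669 were kept. Summed signal over chromosome X ran from 137765 to 149576 in the 7 libraries. Cell identity was not checked, since these values cover chromosome X alone and measure no transcript.

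Whether the 7 libraries look uninduced can be read from the alleles, because induction acts on 1 allele only. The share of genome 2 in the allelic signal was 51.7%, 52.2% and 52.1% in WT replicates 1 to 3, 51.1% and 51.2% in Spen C3 and D4, and 51.6% and 51.2% in SPOC E7 and H1. In the SPOC libraries titled uninduced it was 65.4% in E7 and 64.9% in H1. The 7 libraries stood close to the inputs titled uninduced, at 50.9% to 51.4%. The SPOC H2AK119ub1 pair titled uninduced lay above every other library plotted. The Spen mean of 51.1% ± 0.07 (SD, n = 2) lay 0.908 percentage points below the WT mean of 52.0% ± 0.26 (SD, n = 3), with no overlap (exact two-sided permutation test, p = 0.1, the smallest that 3 against 2 libraries can give, BH-adjusted p = 0.2 over 6 comparisons). The SPOC mean of 51.4% ± 0.25 (SD, n = 2) lay 0.634 percentage points below WT (exact two-sided permutation test, p = 0.2, BH-adjusted p = 0.24). With the SPOC libraries titled uninduced that difference was 13.1 percentage points above WT. In the 3 h series the shares were 53.7% in WT, 54.5% and 48.7% in Spen C3 and C4, and 54.9% and 54.1% in SPOC C11 and H1, and the Spen clones stood on both sides of WT.

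**Figure D1:**
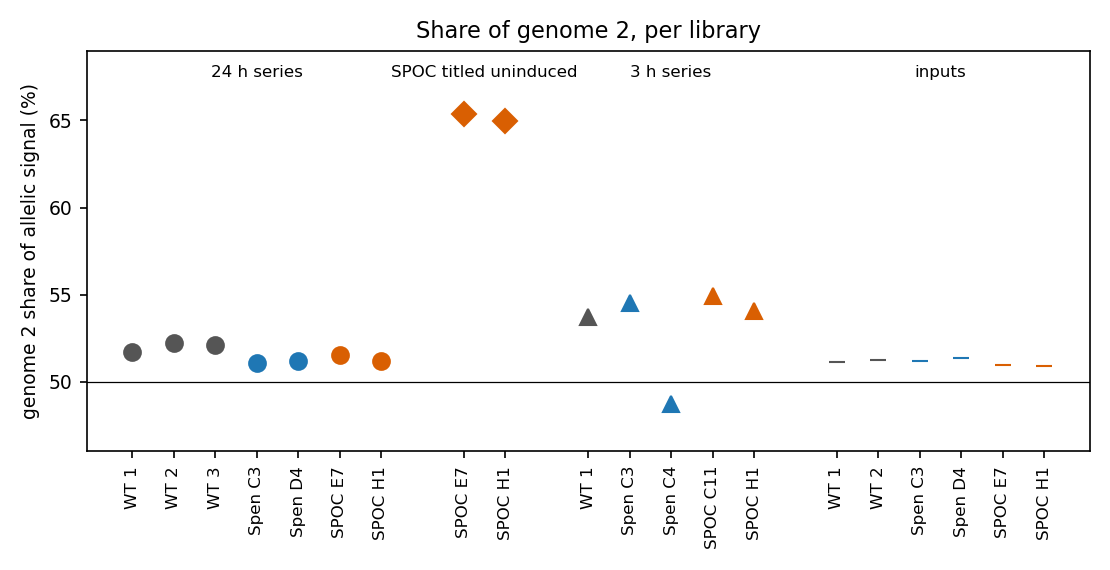
Share of genome 2 in the allelic signal (%, vertical axis) of each library (horizontal axis), for the 7 libraries of the 24 h series (circles), the SPOC libraries titled uninduced (diamonds), the 3 h series (triangles) and the inputs (bars). Grey is WT, blue Spen and orange SPOC. The circles lie between 51.1% and 52.2% and the diamonds at 65.4% and 64.9%.

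The landscape of the mark was shared by all genotypes. The densest window was that of Bcor, which encodes a subunit of a Polycomb repressive complex 1, at X:12000001-12250000. Its level was 1.97, 2.01 and 2.03 in WT, 2.06 and 2.07 in Spen C3 and D4, and 2.22 and 1.87 in SPOC E7 and H1, about 4.09 times the median window, with SPOC on both sides of the other genotypes. Its difference was 0.06 ± 0.07 (SE) for Spen minus WT (adjusted p = 0.82) and 0.04 ± 0.07 for SPOC minus WT (adjusted p = 0.842, limma with BH adjustment). Next came, among windows with a gene, that of Pja1, a ubiquitin ligase gene, with a mean level of 1.62, that of Efnb1, a ligand of Eph receptors, with 1.58, and that of Nhsl2 with 1.55. The lowest levels, -3.03 and -2.87, were in windows without a protein-coding gene. Levels are not corrected for input, and the lowest is that of the last window kept, which is nearly empty.

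CpG-rich promoters go with the level in every library, and the promoters below show what that term covers. RefSeq promoters (GRCm38.p6, the assembly of mm10) run from 250 bases before to 50 after a gene's start. One was called CpG-rich here where its GC content was at least 55% and its CG count at least 0.65 of that predicted from its C and G content. This held for 219 of 1223 promoters on X (17.9%). Shown are Bcor, of the densest window (X:12160297-12160596, minus strand, 21 CG), Huwe1, of a window called higher in SPOC (X:151803032-151803331, plus strand, 31 CG), and Tenm1, a long neural gene whose start lies in a window near the median (X:43274735-43275034, minus strand, 0 CG). Capitals mark each CG. Bcor has 2 RefSeq promoters, of which that with the lower start coordinate is shown. At least as many CG as in the Bcor promoter shown occur in 14.6% of X promoters, at least as many as in that of Huwe1 in 3.92%, and 7.28% have none.
Bcor: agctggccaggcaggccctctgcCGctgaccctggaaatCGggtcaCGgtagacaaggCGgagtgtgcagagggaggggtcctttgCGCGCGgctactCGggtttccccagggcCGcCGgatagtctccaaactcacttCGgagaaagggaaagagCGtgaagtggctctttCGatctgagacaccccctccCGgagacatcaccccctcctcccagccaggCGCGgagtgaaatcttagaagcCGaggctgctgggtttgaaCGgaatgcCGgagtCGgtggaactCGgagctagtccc
Huwe1: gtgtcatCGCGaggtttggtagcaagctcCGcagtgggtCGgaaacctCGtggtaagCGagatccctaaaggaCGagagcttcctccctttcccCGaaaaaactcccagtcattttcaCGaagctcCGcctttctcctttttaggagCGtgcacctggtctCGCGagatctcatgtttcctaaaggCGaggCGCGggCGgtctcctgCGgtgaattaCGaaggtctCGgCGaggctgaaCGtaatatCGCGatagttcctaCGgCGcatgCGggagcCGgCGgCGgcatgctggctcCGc
Tenm1: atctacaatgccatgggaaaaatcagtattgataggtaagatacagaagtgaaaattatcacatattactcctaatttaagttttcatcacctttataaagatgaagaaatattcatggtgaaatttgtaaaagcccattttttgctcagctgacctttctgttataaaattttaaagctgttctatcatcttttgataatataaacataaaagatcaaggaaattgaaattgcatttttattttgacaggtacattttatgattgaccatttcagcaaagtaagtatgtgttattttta

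The 531 windows without a CpG-rich promoter had a median level of -0.09, -0.07 and -0.10 in the WT replicates, -0.10 and -0.11 in Spen C3 and D4, and -0.12 and -0.10 in SPOC E7 and H1. The 17 windows with 3 or more had a median level of 0.77, 0.70 and 0.67 in WT, 0.69 and 0.74 in Spen, and 0.98 and 0.80 in SPOC. The median increased from each promoter class to the next in all 7 libraries, and SPOC E7 stood highest in the richest class. Input DNA increased less, to medians of 0.15 to 0.30 in that class.

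**Figure D2:**
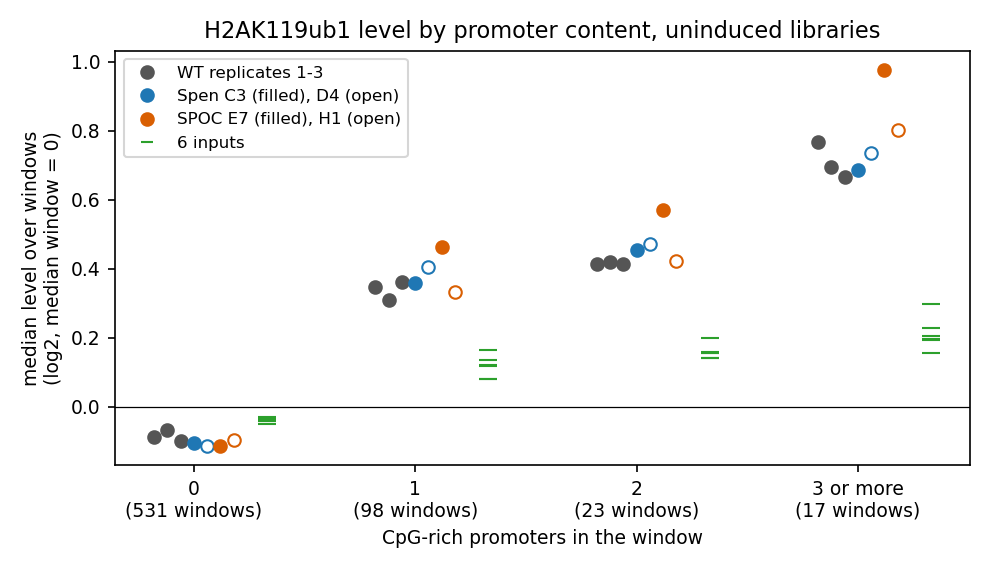
Median level (log2, the median window of each library at 0) of windows with 0, 1, 2 and 3 or more CpG-rich promoters, 1 point per library and green bars for the 6 inputs. SPOC E7 (filled orange) lies above the other libraries in the classes with such promoters, at 0.98 in the richest class against 0.67 to 0.77 in WT.

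Before Xist induction, no window of chromosome X differed between the Spen deletion clones and WT past the threshold. limma called 0 of 669 windows at a BH-adjusted p under 0.05 (0%), 74 had an unadjusted p under 0.05, and the smallest adjusted p was 0.206. The median size of the difference was 0.04 log2 units, 667 of 669 windows differed by less than 0.25, and in 633 the 95% interval lay within ±0.25, which is a 1.19-fold change. Spen and WT values did not overlap in 207 windows, 30.9% of those tested.

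The windows with the smallest unadjusted p for Spen minus WT included that of Hmgb3, which encodes a high mobility group protein, at X:71500001-71750000. Its level was 0.76, 0.74 and 0.88 in WT and 1.00 and 0.98 in Spen C3 and D4, a difference of 0.20 ± 0.05 (SE, adjusted p = 0.206), and it was chosen after its values were seen. Both Spen clones were above all WT replicates there, and SPOC E7 (0.95) and H1 (0.83) fell between. The biggest difference was -1.50 in the last window kept, X:170750001-171000000. It holds no gene and had a mean level of -3.03, and its WT values alone ran from -3.32 to -1.76. Leaving out WT replicate 2 raised the Spen count to 1 window.

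In the SPOC libraries, 14 of 669 windows differed from WT (2.09%), 13 higher (1.94%) and 1 lower (0.149%), by 0.20 to 0.33 log2 units in the 13, or 1.15-fold to 1.26-fold. A further count at an unadjusted p under 0.05 gave 132. All 13 hold protein-coding genes, with a median of 6 against 1 over all windows, and 12 of the 13 hold a CpG-rich promoter, against 20.6% of all windows. SPOC E7 lay above SPOC H1 in all 13, and both lay above every WT replicate, as they did in 107 of all 669 windows (16%). The 1 lower window, X:29000001-29250000, holds no gene and differed by -0.24 ± 0.05 (SE, adjusted p = 0.0229). When each library was divided by its summed signal in place of the centring, 10 windows were higher and 5 lower, and with no centring 0 were called, though the 13 stayed positive, from 0.14 to 0.26. The count rests on single libraries: it was 0 without SPOC E7, 142 without SPOC H1, 1 without WT replicate 1, 0 without WT replicate 2 and 6 without WT replicate 3. The 13 differences stayed positive without any 1 library, which had to be so because both SPOC libraries lay above every WT replicate. The 13 were picked from these libraries, so their sign under other settings is no separate support. With the SPOC libraries titled uninduced, whose files are named induced, the count was 515, 196 higher and 319 lower. By file names, that sets induced SPOC libraries against uninduced WT.

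**Figure D3:**
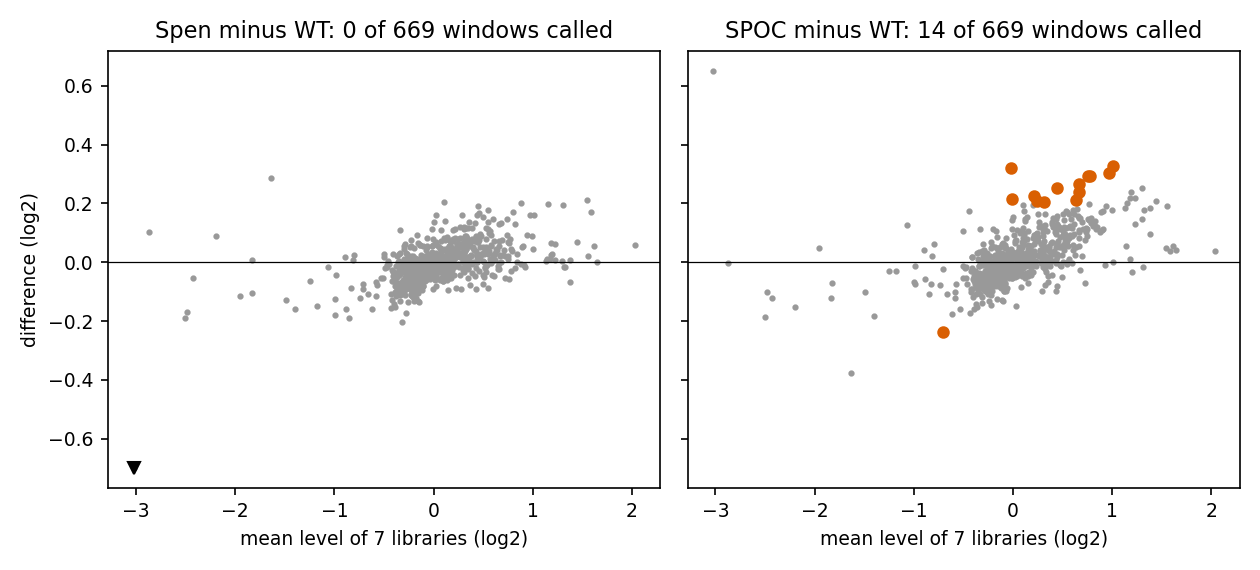
Difference from WT (log2, vertical axis) against the mean level of the 7 libraries (log2, horizontal axis) for each of 669 windows, Spen on the left and SPOC on the right. Orange points are windows called at a BH-adjusted p under 0.05, 0 for Spen and 14 for SPOC, and the black triangle is a window at -1.50 drawn at the edge of the axis.

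The Usp9x window, X:13000001-13250000, holds a single protein-coding gene, for a deubiquitinase. Its signal was 199.7, 179.9 and 182.4 in WT, 174.0 and 174.6 in Spen C3 and D4, and 217.9 and 229.6 in SPOC E7 and H1, and its level 0.00, -0.16 and -0.14, -0.15 and -0.11, and 0.28 and 0.17 in the same order. Both SPOC libraries were above all others, and Spen lay among the WT values. The SPOC difference was 0.32 ± 0.05 (SE, adjusted p = 0.0145) and the Spen difference -0.04 ± 0.05 (adjusted p = 0.872). Tested directly, Spen was lower than SPOC there by 0.36 ± 0.06 (SE, adjusted p = 0.0117).

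The window of Suv39h1, a histone H3 lysine 9 methyltransferase, also holds Was, Wdr13, Rbm3, Ebp and Porcn (X:8000001-8250000). Its level was 0.89, 0.81 and 0.91 in WT, 0.93 and 1.14 in Spen C3 and D4, and 1.28 and 1.13 in SPOC E7 and H1. Spen D4 and SPOC H1 had nearly the same level. The SPOC difference was 0.33 ± 0.06 (SE, adjusted p = 0.0152) and the Spen difference 0.16 ± 0.06 (adjusted p = 0.37).

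The window of Hcfc1, a transcriptional cofactor, and of L1cam, Naa10 and Idh3g, X:73750001-74000000, had a level of 0.82, 0.83 and 0.86 in WT, 0.94 and 1.05 in Spen, and 1.28 and 1.00 in SPOC. Only SPOC E7 stood clear of both Spen clones. The SPOC difference was 0.30 ± 0.07 (SE, adjusted p = 0.0229). The window of G6pdx, of the pentose phosphate pathway, with Emd, Rpl10 and Ikbkg, X:74250001-74500000, had a level of 0.73, 0.63 and 0.59 in WT, 0.69 and 0.75 in Spen, and 1.08 and 0.81 in SPOC. SPOC H1 exceeded the highest WT value by little, and the difference was 0.29 ± 0.07 (SE, adjusted p = 0.031). The other windows called higher included those of Timp1 and Araf, Slc25a5, Zfx and Eif2s3x, Pgk1 and Atp7a, Gprasp1, Gnl3l and Fgd1, and Huwe1.

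The fifth named window is that of Xist, which also holds its antisense gene Tsix, its activator Jpx, and Chic1, Tsx and Cdx4 (X:103250001-103500000). Its level was 0.74, 0.65 and 0.65 in WT, 0.60 and 0.86 in Spen C3 and D4, and 1.04 and 0.91 in SPOC E7 and H1. The Spen clones lay on both sides of WT and both SPOC libraries above all others. The SPOC difference was 0.29 ± 0.07 (SE, adjusted p = 0.0304) and the Spen difference 0.05 ± 0.07 (adjusted p = 0.865). On the alleles the SPOC difference was 0.35 on genome 1 and 0.45 on genome 2. This is the last allelic window, given as ending at 103500000 in WT replicates 1 and 2 and at 103483233 in the other libraries. Its allelic values may therefore cover unlike stretches in WT and SPOC. Of the 13 windows, the 8 covered by the allelic files gave 0.24 to 0.43 on genome 1 and 0.21 to 0.45 on genome 2. None of the 8 was called on either allele. The allelic values come from the same libraries whose total signal picked these windows, so their positive sign is no separate support.

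In the 3 h series the 13 windows did not repeat. SPOC minus WT was negative in 12 of the 13, from -0.20 to 0.12, where 41.0% of all windows were positive, and limma called 0 of 669 (0%), with 9 at an unadjusted p under 0.05. The Xist window there had a level of 1.37 in WT, 0.95 and 0.93 in Spen C3 and C4, and 1.20 and 1.13 in SPOC C11 and H1, so WT was the highest library. For Spen minus WT the count was also 0 (0%), with 23 at an unadjusted p under 0.05. WT has 1 library in that series and was assumed to vary like the clones, and the median SE of a difference was 0.08 against 0.05 in the 24 h series. Both series in 1 fit, with the series as a term, gave 0 windows for either mutant, with the 13 SPOC differences between 0.10 and 0.26. That fit includes the 24 h libraries from which the 13 were picked.

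**Figure D4:**
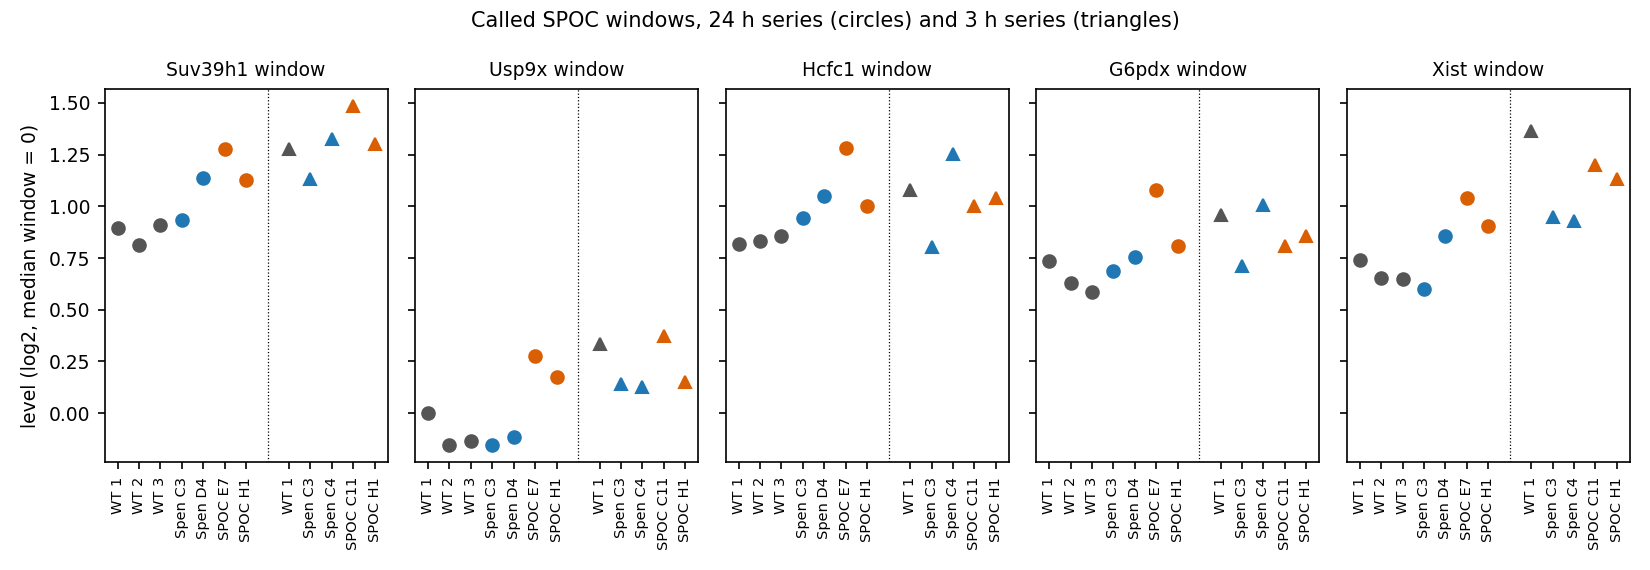
Level (log2, the median window at 0) of the 5 windows named for SPOC in each uninduced library of the 24 h series (circles) and the 3 h series (triangles). Grey is WT, blue Spen and orange SPOC. Both SPOC circles lie above the WT circles in each panel, while in the Xist window the WT triangle, at 1.37, is the highest.

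Gene density moved with these differences. Across the 669 windows, which share their libraries and are not independent, Spearman's rho between SPOC minus WT and the number of protein-coding genes was 0.52, and -0.05 in the 3 h series. For the inputs of the same clones it was 0.26. The clones differed, with 0.53 for SPOC E7 and 0.30 for SPOC H1, and the corresponding values were 0.13 for Spen C3 and 0.35 for Spen D4, each against the same WT mean. Each WT replicate against the other WT gave 0.02, -0.19 and 0.13, so the value of Spen C3 was close to that of WT replicate 3. By number of CpG-rich promoters (0, 1, 2, 3 or more), the median SPOC difference was -0.01, 0.08, 0.11 and 0.18 and the median Spen difference -0.02, 0.02, 0.04 and 0.04. In the 3 h series the medians of both mutants went the other way, to -0.06 in the richest class for SPOC and -0.05 for Spen. Input differences between SPOC and WT in the 13 windows were -0.04 to 0.09, positive in 12 of the 13 where 55.2% of all windows were. They are smaller than the 0.20 to 0.33 in H2AK119ub1, and of the same sign in those 12. When each library had the input of its own replicate or clone subtracted, which leaves out WT replicate 3, 0 windows were called for SPOC. All inputs used were titled uninduced, while the SPOC H2AK119ub1 libraries were chosen by file name, against their titles. Whether the SPOC inputs belong to these libraries was not tested. The 13 differences, picked from these same libraries, were still positive, from 0.16 to 0.34. Leaving out WT replicate 3 alone already lowered the count to 6. The part of gene density, input and occasion in the SPOC difference was not tested.

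The spread of levels along the chromosome did not pass the threshold between genotypes, which 3 against 2 libraries cannot reach. The interquartile range over windows was 0.507 ± 0.026 (SD, n = 3) in WT, 0.581 ± 0.038 (SD, n = 2) in Spen and 0.591 ± 0.087 (SD, n = 2) in SPOC, and the Spen values did not overlap those of WT (exact two-sided permutation test, p = 0.1 for Spen and 0.2 for SPOC, BH-adjusted 0.2 and 0.24). Spearman's rho of level with gene number was 0.507 ± 0.0051 (SD, n = 3) in WT, 0.506 ± 0.0098 (SD, n = 2) in Spen and 0.534 ± 0.0091 (SD, n = 2) in SPOC, with SPOC above all WT values (exact two-sided permutation test, p = 0.1 for SPOC and 0.8 for Spen, BH-adjusted 0.2 and 0.8).

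Among 25 windows holding 38 housekeeping genes, 7 were higher in SPOC (1.94% over all windows), 0 passed for Spen (0%), and the median SPOC difference was 0.16 against 0.00 over all windows, with -0.06 in the 3 h series. The median Spen difference was 0.04 against -0.01 over all windows, with -0.07 in the 3 h series. Named by the size of their difference, the 4 windows are those of Usp9x, Hcfc1, G6pdx and Huwe1, the last with 0.22 ± 0.04 (SE, adjusted p = 0.0229). Huwe1 encodes a ubiquitin ligase.

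Chromatin regulator genes lay in 22 windows, of which 4 were higher in SPOC (among them those of Suv39h1, Hcfc1 and Zfx), against 1.94% of all windows, with a median SPOC difference of 0.12 and a median Spen difference of 0.04. In the 3 h series these medians were -0.08 and -0.10. The Hdac6 window, that of a tubulin and protein deacetylase, differed by 0.25 in SPOC (adjusted p = 0.0938) and 0.19 in Spen (adjusted p = 0.346), so it did not pass. The Bcor window, above, was near 0 in both. Of 7 windows with genes that escape X inactivation, 1 was higher in SPOC (1.94% over all windows). It was that of the translation factor gene Eif2s3x, by 0.27 (adjusted p = 0.0152), the same window as that of Zfx. The windows of Utp14a (0.21, adjusted p = 0.0997), Pbdc1 (0.16) and Ddx3x (0.14) did not pass. The median there was 0.14 for SPOC and 0.03 for Spen, and -0.08 and -0.09 in the 3 h series.

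Developmental transcription factor genes, classical Polycomb targets, lay in 10 windows with a median level of 0.68 in WT, 0.77 in Spen and 0.83 in SPOC. Only the window of Cdx4, shared with Xist, was higher in SPOC (1.94% over all windows) and none passed for Spen (0%). The median difference was 0.07 for Spen and 0.12 for SPOC, and -0.06 and -0.03 in the 3 h series. The Gata1 window, which is also that of Hdac6, differed by 0.25 in SPOC (adjusted p = 0.0938). The Foxp3 window differed by 0.24 in SPOC (adjusted p = 0.0664) and the Sox3 window by -0.02 in SPOC and 0.13 in Spen (adjusted p = 0.39). Of 5 windows with ES cell genes, 1 was higher in SPOC (1.94% over all windows), that of Zfx, a self-renewal factor. It is the window already counted above for Zfx and Eif2s3x, and the Nr0b1 window was at 0.03. The median there was 0.20 for SPOC and 0.08 for Spen, and -0.05 and -0.06 in the 3 h series.

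X-inactivation centre genes lay in 4 windows, of which 1, that of Xist, was higher in SPOC (1.94% over all windows). None passed for Spen (0%), and the median difference was 0.16 for SPOC and 0.11 for Spen. In the 3 h series the same medians were -0.20 and -0.35. The window of Ftx, a noncoding gene of the centre, differed by 0.20 in both mutants (adjusted p = 0.225 for SPOC and 0.441 for Spen). The window of Rlim, a ubiquitin ligase that acts on Xist activation, differed by 0.12 in SPOC and 0.17 in Spen (adjusted p = 0.469 and 0.465).

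The remaining lists held no called window in either mutant. Over all windows 2.09% were called for SPOC and 0% for Spen, so the lack of calls is no trait of these lists. In 20 windows of signalling and neural receptor genes the median difference was 0.02 for Spen and 0.03 for SPOC, and the Efnb1 window differed by 0.17 in Spen (adjusted p = 0.48). In 46 windows of germline multicopy families it was -0.01 and 0.01, with the window of Xlr3c, of a lymphocyte-regulated family, at 0.22 in SPOC (adjusted p = 0.0997). Where copies within these families are near-identical, reads may be split among them. In 13 windows of long neural and muscle genes the median level was -0.16 in WT, -0.11 in Spen and -0.15 in SPOC, and the differences were -0.02 and -0.01.

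The alleles gave few calls. On genome 1, 354 windows were tested and Spen minus WT gave 0 calls (0%), with 24 at an unadjusted p under 0.05. SPOC minus WT gave 1 lower (0.282%), with 39 unadjusted, in the window X:3750001-4000000 of the multicopy Btbd35f10, at -0.53 ± 0.09 (SE, adjusted p = 0.00607). Its levels on genome 1 were -2.29, -2.16 and -2.11 in WT, -2.33 and -2.07 in Spen, and -2.68 and -2.74 in SPOC, all far under the median window. On genome 2, Spen minus WT gave 1 higher window (0.282%), with 32 unadjusted, that of Btbd35f3 at X:4000001-4250000, by 0.52 ± 0.09 (SE, adjusted p = 0.0207). Its levels on genome 2 were -2.42, -2.32 and -2.41 in WT and -1.82 and -1.91 in Spen, again low. SPOC minus WT on genome 2 gave 0 calls (0%), with 48 unadjusted. The ratio of genome 2 over genome 1, in which a scaling factor would cancel if both alleles of a library share it, gave 0 calls for either mutant (0%), with 34 unadjusted for Spen and 21 for SPOC. Without any one WT replicate or Spen clone the Spen call on genome 2 was lost (0 windows). The SPOC count on genome 1 was 0 without WT replicate 3, 3 without WT replicate 1 (2 higher, 1 lower) and 31 without SPOC H1 (28 higher, 3 lower), and the SPOC count on genome 2 was 34 without SPOC H1.

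Between the mutants, which share no WT library, Spen was lower than SPOC in 2 of 669 windows (0.299%), that of Usp9x and the last window kept, with 76 at an unadjusted p under 0.05 and 0 in the 3 h series. The count was 0 without Spen C3 and without SPOC E7, 5 without WT replicate 3 and 68 without SPOC H1.

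The size of these differences can be read against that between libraries. The last window kept, which is nearly empty, was left out for this, a choice made after its values were seen. The standard deviation over windows of the level difference was 0.057 to 0.076 for pairs of WT replicates, 0.067 to 0.100 for WT with Spen, 0.071 to 0.081 for WT with SPOC H1 and 0.131 to 0.139 for WT with SPOC E7. So SPOC H1 was about as close to WT as the Spen clones were, and SPOC E7 stood apart from all WT replicates. The value was 0.070 between the Spen clones and 0.113 between the SPOC clones. Between the series it ran from 0.088 to 0.150, and its lowest value was that of Spen C3 with itself. SPOC H1 with itself gave 0.101 and WT replicate 1 of both series 0.135. With the last window included, the value for Spen C3 with itself was 0.178.

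**Figure D5:**
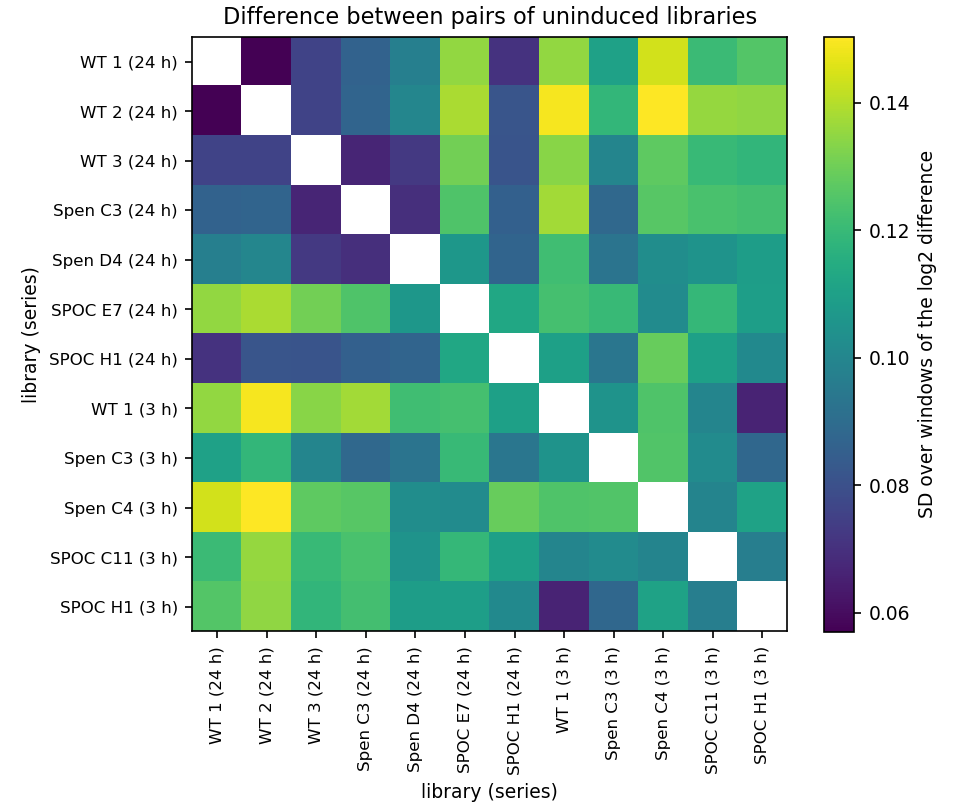
Standard deviation over windows (the last one left out) of the level difference (log2, colour) for each pair of the 12 uninduced libraries, on both axes. WT replicates 1 and 2 of the 24 h series are the closest pair at 0.057, and SPOC E7 of the 24 h series lies 0.131 to 0.139 from the WT replicates of that series.

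Round Xist the 2 series stood apart in several windows. In 5 of 11 windows from X:102250001 to X:105000000, a stretch chosen after the values were seen, all libraries of the 3 h series lay above all 7 of the 24 h series, which held in 2.09% of all windows (14 of 669). In the Ftx window the 24 h libraries had levels of 0.96 to 1.40 and the 3 h libraries 1.60 to 1.93. WT of the 3 h series exceeded the WT mean of the 24 h series by 0.36 to 0.92 in the 11 windows. Of the 5 windows that stood apart, the allelic files cover 1, that of Hdac8, a histone deacetylase gene. There genome 2 had levels of 0.33 to 0.66 in the 24 h series and 0.82 to 1.30 in the 3 h series, and genome 1 of 0.19 to 0.46 and 0.26 to 0.68, so the series overlapped on genome 1 and not on genome 2. In the Xist window, whose allelic end is not the same in all libraries, the series overlapped on both alleles.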

How the data were processed

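H2AK119ub1 was measured by native chromatin immunoprecipitation and sequencing. The authors deposited a normalized signal per 250 kb window of chromosome X for all reads, genome 1 and genome 2, with a scaling not given in the sources used here. Bowtie2 2.2.6, Picard, bedtools and mm10 are named per the submitters' processing notes, with roles not stated. Which strain is genome 1 is not stated. Here log2(signal + 1% of the median window) was centred on the median window of each library, a fold difference being on that scale. Windows were kept whose mean across the 36 libraries reached 10% of the median window, 669 for total signal and 354 for the alleles, whose files end at Xist. Genotypes were compared in a single limma 3.58.1 fit (R 4.3.3) of the 3 groups, two-sided, with BH adjustment at 0.05 over all windows, and the method was tested on simulated data. Other values came from Python 3.11.15 with pandas 2.3.3, numpy 2.4.6 and scipy 1.17.1, and plots from matplotlib 3.10.9. Protein-coding genes (966 on X, RefSeq, GRCm38.p6) were placed by their midpoint. Named windows are the 5 highest and 5 lowest called ones per mutant that hold a gene and whose groups do not overlap, the Xist window, and the list members with the largest differences. Some windows are not reported here. Members, lists and rules were chosen with earlier results of these data known.

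The labels call the clones biological replicates. The clones of a mutant shared an occasion in the 24 h series, and the WT replicates were handled on separate ones. The spread behind the p-values mixes these, and does not hold the variation of a mutant between occasions. Depth is not given. Reading the smallest positive allelic value as 1 fragment puts 317 to 537 fragments per allele in a median window of the 7 libraries, a counting error of 4.32% to 5.62%. Alternatives changed the SPOC libraries, series, input, centring, pseudocount, filter, gene placing and libraries included. A test of the difference between series and a fit of the inputs alone were added after seeing the data.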

Additional observations from a re-analysis of the deposited data

Results flagged for a closer look

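The difference of a mutant from WT was called unlike in the 24 h and 3 h series by limma in few windows. The count was 1 of 669 for Spen (0.149%) and 3 of 669 for SPOC (0.448%), at a BH-adjusted p under 0.05. Of these, 3 are given here, and the test was added after seeing the data. In the Nexmif window, X:104000001-104250000, Spen minus WT was -0.00037 in the 24 h series and -0.49 in the 3 h series, a difference between series of 0.492 (SE 0.083, adjusted p = 0.0239), and the single WT library of the 3 h series, at 1.07, lay above every other uninduced library (0.37 to 0.88). In the window of Pcyt1b, of phosphatidylcholine synthesis, SPOC minus WT was 0.19 and -0.25, a difference of 0.445 (adjusted p = 0.0368). In the window of Zfx and Eif2s3x it was 0.27 and -0.16, a difference of 0.426 (adjusted p = 0.0481). These tests rest on 1 WT library in the 3 h series, which cannot be left out.

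The SPOC libraries titled uninduced, which were used as an alternative to the pair described here, had a genome 2 share of 65.4% (E7) and 64.9% (H1), above the 51.7% to 52.2% of uninduced WT.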

How the results depend on the processing

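No paired analysis was possible, since no WT replicate shared an occasion with a mutant line in the 24 h series. The WT replicates also carry numbers and the mutant libraries clone names. Counts of windows called moved as follows. With the SPOC libraries titled uninduced, whose files are named induced, SPOC minus WT gave 515 windows on total signal. It gave 0 on genome 1, 263 on genome 2 and 314 on the ratio. In that setting Spen minus SPOC gave 488, and Spen minus WT gave 4 on genome 2 and 1 on the ratio. Spen minus WT on total signal went from 0 to 1 with inputs subtracted and WT replicate 3 left out, and to 5 with division by the standard deviation. SPOC minus WT on total signal went from 14 to 0 in the 3 h series, in both series, with inputs subtracted and with no centring, and to 8 with no filter. Spen minus SPOC went from 2 to 0 with clones averaged, in the 3 h series, in both series and with inputs subtracted, to 4 by summed signal, 9 by standard deviation and 1 with a pseudocount of 10%. SPOC minus WT on genome 1 went from 1 lower window to 6 with clones averaged (5 higher), 0 in the 3 h series, in both series, with inputs subtracted and with no filter, 3 by standard deviation (all higher), 7 with the larger pseudocount (6 higher) and 16 with the 50% filter (all higher). Spen minus WT on genome 2 went from 1 to 0 in the 3 h series, in both series, with inputs subtracted, with no centring, with no filter and with the 50% filter, and to 2 by summed signal. SPOC minus WT on genome 2 went from 0 to 5 with clones averaged and with the 50% filter, and to 3 by summed signal, by standard deviation and with the larger pseudocount. The Spen ratio went from 0 to 1 for WT and Spen alone, with centring and with the larger pseudocount.

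Leaving out 1 library gave 0 to 1 windows for Spen minus WT on total signal, 0 to 142 for SPOC minus WT, 0 to 68 for Spen minus SPOC, 0 to 2 and 0 to 31 on genome 1 for Spen and SPOC, 0 to 1 and 0 to 34 on genome 2, and 0 to 2 for the Spen ratio.

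Among the 5 named windows, SPOC differences that changed sign were those of the windows from 8000001 (-0.131), 13000001 (-0.184) and 73750001 (-0.0398) with the SPOC libraries titled uninduced, and from 13000001 (-0.0721), 73750001 (-0.0568), 74250001 (-0.125) and 103250001 (-0.200) in the 3 h series. The Spen differences there, none of which was called, also changed sign in the 3 h series in 4 of the 5, the exception being 13000001, down to -0.425 at 103250001, and under other settings at 13000001 and 103250001. The SPOC genome 2 share difference became 13.1 with the titled libraries and 0.769 in the 3 h series. The SPOC difference in rho with gene number became -0.0333 and -0.00528 in these. That of Spen, -0.00129, became 0.0128 with inputs subtracted and 0.00208 with genes placed by overlap, and ran from -0.00824 to 0.00565 without 1 library. The causes were not tested. Genotype and occasion cannot be told apart in the 24 h series, and the 3 h series has 1 WT library. Differences under about 0.1 log2 units are within the error of a window here.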

Other observations

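Spen C3, the clone present in both series, lay closer to its own library of the other series (standard deviation of level differences 0.088, the last window left out) than any other pair of libraries between the series, of which the farthest stood at 0.150. SPOC H1, also in both, gave 0.101 with itself, and its closest library of the 3 h series was Spen C3 at 0.094.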
